A study of Mus musculus with 12 samples.

Results

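A set of 8 genes of the fat cell's lipid droplet and of lipolysis was followed across all arrays: Cidec, G0s2, Plin1, Plin2, Pnpla2, Abhd5, Lipe and Mgll. Members were all probe sets whose platform annotation names only 1 gene, that gene being on this list. This gave 8 probe sets for 7 genes, out of 12422 probe sets on the arrays and 8251 genes that such probe sets name. Mgll had 2 probe sets, and Plin1, which encodes the main coat protein of fat cell droplets, had none and was not analysed here. Of the 8 probe sets, 7 were bright enough to be tested, 1 for each gene, and the second Mgll probe set was too dim.

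RNA of perigonadal fat was measured on 12 Affymetrix arrays, 1 per mouse, to compare fat that has more or less Glut4, the transporter through which insulin drives glucose uptake. All mice were female, 6 months old and fed ad libitum, and there were 3 in each of 4 groups. Glut4 overexpressors carried a Glut4 transgene driven by the aP2 promoter on the FVB strain, and their controls were FVB littermates. Glut4 knockouts (adipose-Glut4-/-) were on a mix of C57B6, FVB and SV129, and their controls were aP2-Cre transgenic mice of the same mix, so those controls carry the Cre transgene. The aP2 promoter is known to be active in fat cells and has also been reported active in macrophages, which limits both lines as models of the fat cell alone. Groups came from the sample titles, because the genotype field does not set controls apart from mutants.

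The values are array intensities on a linear scale, and log2 fold changes are differences of log2(intensity + 36.92), which understates changes of dim probe sets. Median intensity per array ran from 185.8 to 219.4. The lowest deposited value differed between the lines (21.9 and 22.27), so the lines may have been processed apart and no level is compared between them. Precision is limited by the 3 arrays in each group, since arrays have no read depth. Whole fat was measured, so fewer cells of a type and less RNA per cell cannot be told apart. The Slc2a4 probe set, for Glut4 itself, averaged 925 in overexpressors and 811 in their controls (log2 fold change 0.22), and 369 in knockouts and 515 in their controls (-0.43). Every knockout lay below every knockout control, as did 1.93% of all tested probe sets. Neither change passed the test (limma adjusted p = 0.930 and 0.9995), and since the labels name neither the deleted part nor the species of the transgene, this probe set checks neither set of labels. The labelled tissue was borne out by adipocyte markers, with Adipoq, the fat cell hormone adiponectin, averaging between 6251 and 6581 in the 4 groups.

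Fat cells store triglyceride in a single large droplet under a coat of perilipins, and Cidec sits where droplets touch and lets lipid pass from small droplets to large ones. Lipolysis takes the store apart in steps: Pnpla2 (adipose triglyceride lipase) removes the first fatty acid, Lipe (hormone-sensitive lipase) the next and Mgll (monoglyceride lipase) the last. Abhd5 activates Pnpla2 and is held by Plin1 on the droplet until hormones signal fasting, while G0s2 binds Pnpla2 and inhibits it.

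In overexpressor fat, the estimates for Cidec, G0s2 and Abhd5 were lower than in controls, by 0.52 to 0.80 on the log2 scale, while the lipases Pnpla2, Lipe and Mgll and the coat gene Plin2 had estimates between -0.06 and 0.14. In knockout fat, all 7 estimates lay above 0 (between 0.0035 and 0.27, against 63.1% of all tested probe sets above 0), although that of Pnpla2 turned to -0.03 once array medians were subtracted. No gene passed the threshold (limma, Benjamini-Hochberg adjusted p under 0.05 over 7454 probe sets) in either comparison, where 0.0805% of all tested probe sets did in the overexpressor line and 0.121% in the knockout line. At an unadjusted p under 0.05, 3 of the 7 were lower in overexpressors, against 3.53% of all tested probe sets, and 0 of the 7 differed in knockouts, against 3.98%. The median change of the 7 was -0.06 in overexpressors and 0.25 in knockouts, against -0.07 and 0.043 over all tested probe sets. The genes were chosen with earlier results of these arrays known, so these shares are a description only.

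**Figure D1:**
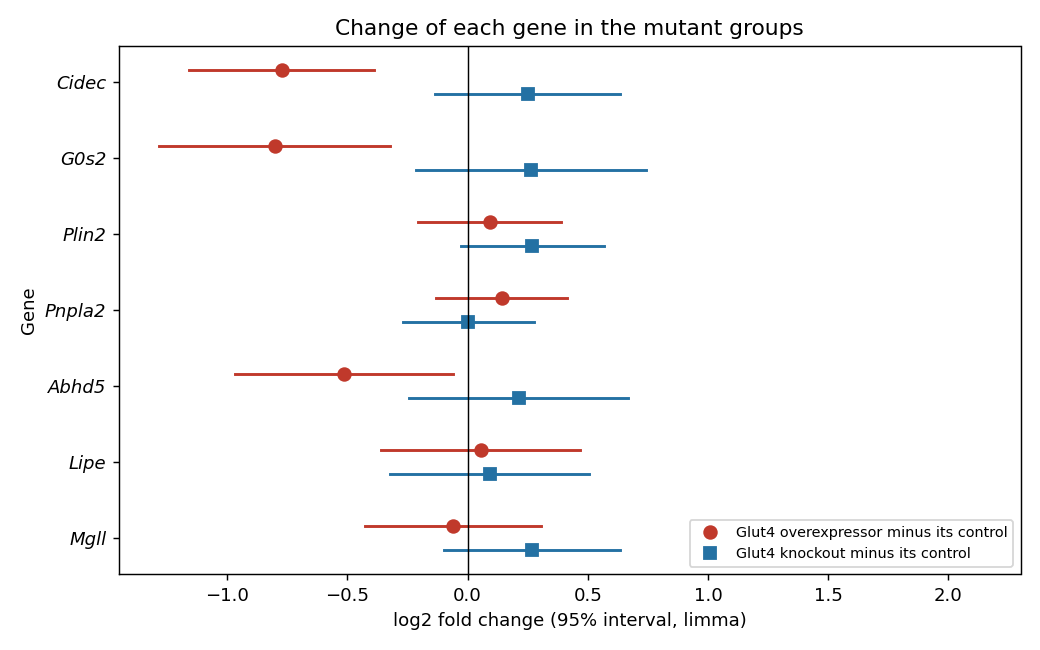
Log2 fold change of each tested gene in Glut4 overexpressors minus their controls (red circles) and in Glut4 knockouts minus their controls (blue squares), with limma's 95% intervals. The overexpressor intervals of Cidec, G0s2 and Abhd5 lie below 0, and all 7 knockout intervals include 0.

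Cidec, which enlarges the droplet, separated the overexpressor groups. Its probe set read 1139, 1728 and 1792 in overexpressors, against 2243, 2856 and 2834 in their controls. Every overexpressor lay below every control, which 2 of the 7 genes shared, against 6.51% of all tested probe sets in that direction. The overexpressors averaged 1553 ± 360 and their controls 2644 ± 348 (SD, n = 3 each), so the overexpressor mean was 58.7% of the control mean. On the log2 scale this was a change of -0.77 (SE 0.18, 95% interval -1.16 to -0.39), with an unadjusted limma p of 0.000856 and an adjusted p of 0.304. Without overexpressor 1, the lowest array, the fold change was -0.57 (limma adjusted p = 0.493).

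In knockout fat, Cidec read 2996, 3731 and 3753, against 2576, 3108 and 3099 in knockout controls. The groups overlapped, since knockout 1 lay between the controls. Means were 3493 ± 431 in knockouts and 2928 ± 304 in their controls (SD, n = 3 each), a log2 fold change of 0.25 (95% interval -0.13 to 0.63, limma adjusted p = 0.9995). It ran from 0.16 without control 1 to 0.36 without knockout 1.

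Cidec lies on chromosome 6 (GRCm38.p6), and the RefSeq table holds 2 start sites for it. The window around the start at the lower coordinate is shown because Cidec had the smallest p of the 7 genes in the overexpressor line. It covers chr6:113434715-113435014 on the minus strand, from 250 bases before the start to 50 after it, and capitals mark the match to the C/EBP motif TTNNGCAA, 198 bases before the start and read on the opposite strand.
Cidec: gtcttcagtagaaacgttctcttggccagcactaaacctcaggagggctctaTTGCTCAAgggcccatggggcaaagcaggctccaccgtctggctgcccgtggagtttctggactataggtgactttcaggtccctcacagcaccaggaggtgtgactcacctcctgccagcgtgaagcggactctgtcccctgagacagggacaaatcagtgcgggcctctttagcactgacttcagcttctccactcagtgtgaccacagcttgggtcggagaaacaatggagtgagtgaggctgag
C/EBP factors act in fat cell differentiation, and 10.8% of the 32851 promoter windows of this length hold a match to that motif. The match is a description, and whether it is a bound site was not tested.

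G0s2, the inhibitor of Pnpla2, was the other gene whose overexpressor groups did not overlap. Its probe set read 755, 1073 and 1062 in overexpressors, against 1487, 1462 and 2208 in their controls. The highest overexpressor lay well below the lowest control, and control 3 stood above the other controls. Overexpressors averaged 963 ± 181 and controls 1719 ± 424 (SD, n = 3 each), 56.1% of the control mean. The log2 fold change of -0.80 (SE 0.22, 95% interval -1.28 to -0.32) had an unadjusted limma p of 0.00327 and an adjusted p of 0.509. It was -0.61 without control 3 and -0.64 without overexpressor 1.

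Knockouts read 1464, 2080 and 2301 for G0s2, against 1484, 1983 and 1360 in their controls. Knockout 1 lay within the controls and the other knockouts above them. On the log2 scale the estimate was 0.26 (95% interval -0.22 to 0.74, limma adjusted p = 0.9995). It was 0.45 without knockout 1 and 0.42 without control 2, but 0.13 without knockout 3 and 0.15 without control 3.

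The G0s2 window is shown because G0s2 was the other gene whose overexpressors all lay below their controls. It lies on chromosome 1 (chr1:193273139-193273438, GRCm38.p6, minus strand). It held none of the 4 motifs searched, so it has no capitals, and its GC content of 66.7% and 13 CpG sites stood beside medians of 52.7% and 7 over all windows.
G0s2: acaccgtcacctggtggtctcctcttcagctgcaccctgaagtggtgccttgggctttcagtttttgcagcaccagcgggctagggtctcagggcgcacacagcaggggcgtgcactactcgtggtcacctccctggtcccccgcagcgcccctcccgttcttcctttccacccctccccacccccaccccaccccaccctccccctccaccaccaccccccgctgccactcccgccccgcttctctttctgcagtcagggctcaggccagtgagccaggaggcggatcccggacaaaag

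**Figure D2:**
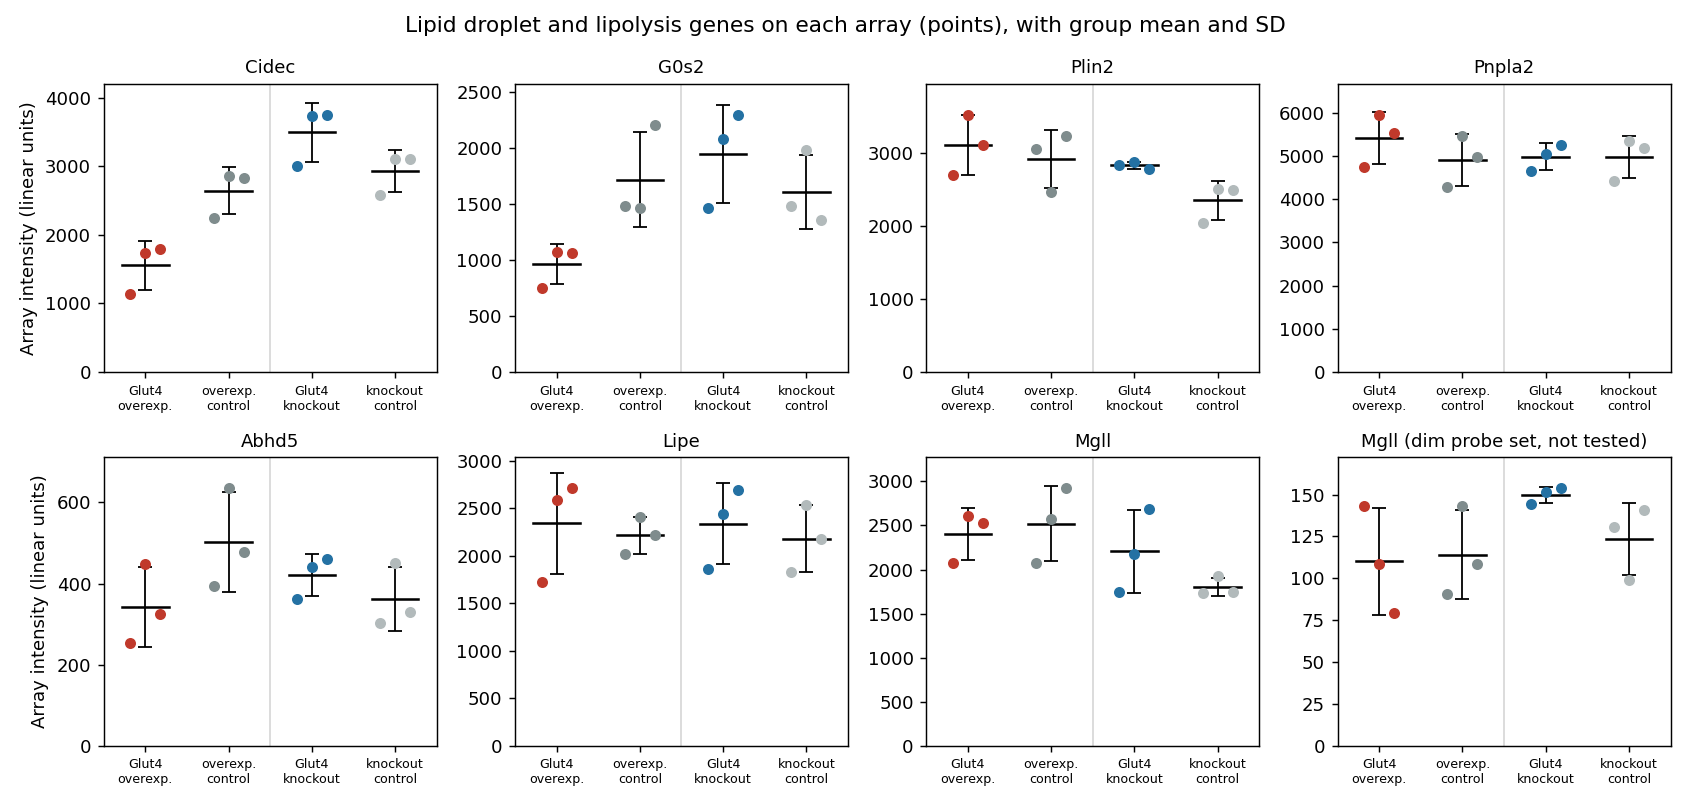
Array intensity (linear units, axis from 0) of each member probe set on every array (points), with the group mean and SD (bars), for Glut4 overexpressors, their controls, Glut4 knockouts and their controls. The 3 overexpressors lie below their 3 controls for Cidec and G0s2, and the 3 knockouts lie above their 3 controls for Plin2 and the dim Mgll probe set.

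Plin2, a coat protein found on droplets of most cell types, differed little in overexpressors, which read 2699, 3528 and 3108, against 3052, 2469 and 3240 in their controls. These groups overlapped, with a log2 fold change of 0.09 (95% interval -0.21 to 0.39, limma adjusted p = 0.938). Knockouts read 2832, 2884 and 2777, against 2045, 2514 and 2500 in their controls. Here every knockout lay above every control, the only tested member of the 7 for which this held, against 5.66% of all tested probe sets in that direction. The knockouts lay close together (2831 ± 53.3) and the controls wider (2353 ± 267, SD, n = 3 each). The log2 fold change of 0.27 (SE 0.14, 95% interval -0.03 to 0.57) did not pass (limma unadjusted p = 0.0723, adjusted p = 0.9995), and it was 0.17 without knockout control 1.

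Pnpla2, the lipase of the first step, read 4749, 5956 and 5535 in overexpressors, against 4272, 5470 and 4980 in their controls. Both groups covered much of the same range, with a log2 fold change of 0.14 (95% interval -0.13 to 0.41, limma adjusted p = 0.919). Knockouts read 4643, 5043 and 5253, against 4420, 5336 and 5177 in their controls, and the knockouts lay inside the range of the controls. The means were 4980 ± 310 in knockouts and 4977 ± 489 in controls (SD, n = 3 each). The estimate was 0.0035 on the log2 scale, and its 95% interval of -0.27 to 0.28 gives the size of change these arrays could have missed.

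Abhd5, the activator of Pnpla2, read 255, 447 and 324 in overexpressors, against 393, 635 and 478 in their controls. The groups overlapped through overexpressor 2, and the overexpressor mean was 68.1% of the control mean (342 ± 97.6 in overexpressors and 502 ± 122 in controls, SD, n = 3 each). The log2 fold change of -0.52 (SE 0.21, 95% interval -0.97 to -0.06) had an unadjusted limma p of 0.0293 and an adjusted p of 0.916. Without overexpressor 1 or without control 2 it was -0.34 in each case, with unadjusted limma p of 0.136 and 0.140. Knockouts read 362, 441 and 459 for Abhd5, against 303, 452 and 329 in their controls. They overlapped too (0.21, 95% interval -0.24 to 0.67, limma adjusted p = 0.9995), with 0.11 without knockout control 1 and 0.37 without knockout control 2.

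Lipe, the lipase of the second step, read 1728, 2583 and 2709 in overexpressors, against 2018, 2407 and 2215 in their controls. The overexpressors spread more widely than the controls and enclosed them (log2 fold change 0.06, 95% interval -0.36 to 0.47, limma adjusted p = 0.973). Knockouts read 1863, 2443 and 2695, against 1830, 2533 and 2175 in their controls. The groups overlapped (0.09, 95% interval -0.32 to 0.51, limma adjusted p = 0.9995).

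Mgll, the lipase of the last step, read 2072, 2607 and 2533 in overexpressors, against 2069, 2575 and 2922 in their controls. These groups overlapped almost fully (log2 fold change -0.06, 95% interval -0.43 to 0.30, limma adjusted p = 0.970). Knockouts read 1748, 2182 and 2686, against 1733, 1923 and 1749 in their controls. Knockout 3 was highest and knockout 1 lay within the controls, with a log2 fold change of 0.27 (95% interval -0.10 to 0.63, limma adjusted p = 0.9995). It was 0.42 without knockout 1 (limma unadjusted p = 0.0288) and 0.12 without knockout 3 (0.499). The second Mgll probe set read 145, 151 and 154 in knockouts, against 130, 99.2 and 141 in their controls, and between 79.4 and 143 in overexpressors and 90.8 and 143 in theirs. Its mean log2 value of 7.32 lay just under the lowest tested value of 7.54. In the fit with no filter it changed by -0.04 in overexpressors and by 0.23 in knockouts, the same signs as the brighter probe set, and passed neither test (limma adjusted p = 1).

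The overexpressor effect was also set against the knockout effect, which share no arrays. For Cidec the difference between the effects was -1.02 on the log2 scale (SE 0.25, 95% interval -1.57 to -0.48), with an unadjusted limma p of 0.00142 and an adjusted p of 0.332. For G0s2 it was -1.07 (95% interval -1.74 to -0.39, limma unadjusted p = 0.00492, adjusted p = 0.555), and for Abhd5 -0.73 (95% interval -1.37 to -0.09, limma unadjusted p = 0.0295, adjusted p = 0.893). No gene passed, against 0.161% of all tested probe sets, and 3 of the 7 had an unadjusted p under 0.05 and a lower value, against 4.32%. Of the 7 genes, 4 (Cidec, G0s2, Abhd5 and Mgll) had an estimate below 0 in overexpressors and above 0 in knockouts, a pattern that 44.7% of all tested probe sets also had.

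The genes tended to be high or low together on an array. Overexpressor 1 was the lowest of its line's 6 arrays for 4 of the 7 genes (Cidec, G0s2, Abhd5 and Lipe), and its log2 values averaged 0.43 below the line's mean. The other overexpressors averaged 0.06 and -0.03, and the overexpressor controls -0.04, 0.18 and 0.26. In the knockout line, control 1 was lowest for 6 of the 7 genes and knockout 3 highest for 5. Knockouts averaged -0.12, 0.16 and 0.25 and their controls -0.26, 0.08 and -0.11, so the groups of both lines overlapped on this average. Overexpressor 1 also had the lowest median intensity of its line (188.1), but knockout control 1 did not (210.2, in a line whose lowest was 185.8). With array medians subtracted, overexpressor estimates were -0.72 for Cidec, -0.74 for G0s2 and -0.46 for Abhd5. Those of Plin2, Pnpla2, Lipe and Mgll then lay between -0.004 and 0.20. With quantile normalization within each line, Cidec, G0s2 and Abhd5 had -0.66, -0.69 and -0.45, and the others lay between 0.06 and 0.23. The part of array brightness in the shared movement was not tested beyond these fits and those without single arrays.

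**Figure D3:**
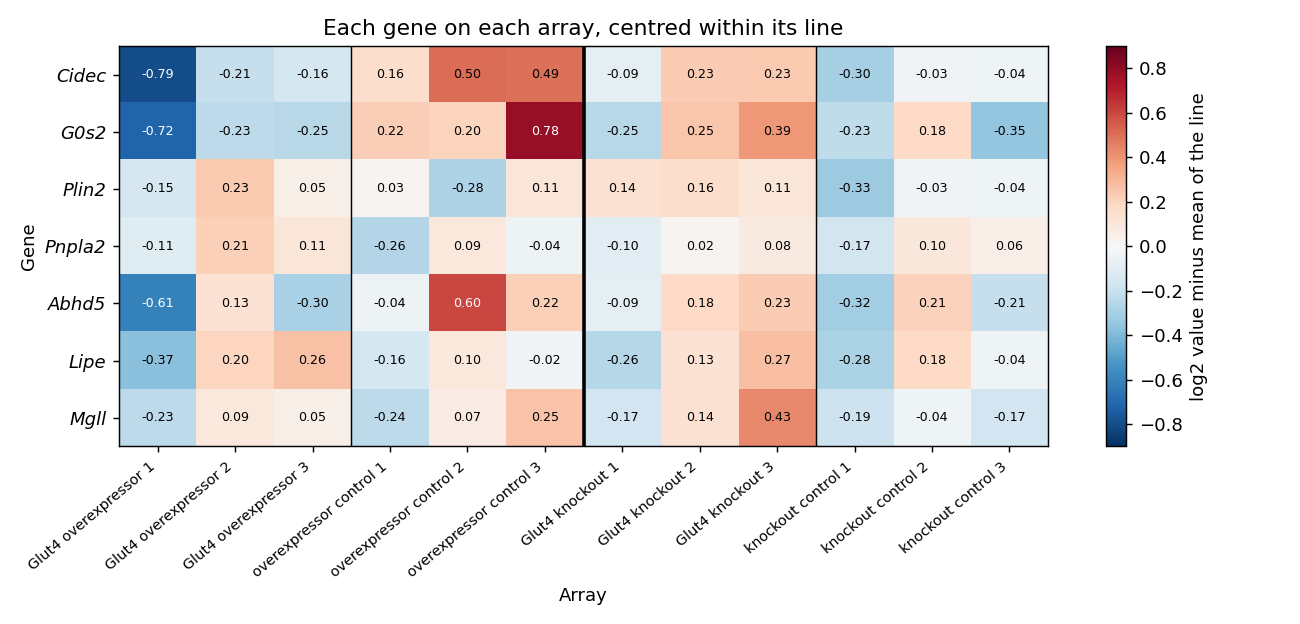
Log2 value of each tested gene on each array minus the mean of that gene over the 6 arrays of its line (colour and printed number). Overexpressor 1 is blue for all 7 genes, knockout control 1 is blue for all 7, and in the overexpressor line Cidec and G0s2 are blue in all 3 overexpressors and red in all 3 controls.

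Over the 12 arrays, log2 values were compared between pairs of genes, first after centring on each line and then after centring on each group, which takes out the difference between mutants and controls. These correlations describe arrays that share their line and their brightness. Cidec went with G0s2 at r = 0.885 centred on lines and 0.694 centred on groups, and with Abhd5 at 0.856 and 0.768. Cidec and Pnpla2 had r = 0.159 centred on lines but 0.891 centred on groups. Likewise Cidec and Lipe had 0.476 and 0.933, so arrays of a group that read higher for Cidec tended to read higher for both lipases. This relation was weaker in values centred on lines, which keep the difference between mutants and controls. Plin2 stood most apart, with r between 0.175 and 0.432 to the other genes centred on lines.

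Because of this shared movement, each gene was also read against Pnpla2 on the same array, a comparison added after the values were seen. Only the change between groups is meaningful in it, not the level. Cidec minus Pnpla2 averaged -1.80 ± 0.21 in overexpressors and -0.88 ± 0.07 in their controls (SD, n = 3 each), a difference of -0.91 with no overlap. For G0s2 the difference was -0.94 and for Abhd5 -0.66, again with all overexpressors below all controls. Mgll also separated, by -0.20, while Lipe (-0.09) and Plin2 (-0.05) overlapped. In knockouts, Cidec (0.25) and Plin2 (0.27) lay above all controls, and G0s2 (0.26), Abhd5 (0.21), Mgll (0.26) and Lipe (0.09) overlapped. The 6 comparisons with no overlap each had an exact two-sided permutation p of 0.1, the smallest that 3 arrays against 3 can give, so none of the 12 comparisons could pass a threshold of 0.05. Of the other 7453 tested probe sets, 16.9% were lower in all overexpressors than in all controls when read against Pnpla2, and 3.53% were higher in all knockouts. Pnpla2 itself had the highest overexpressor estimate of the 7 genes (0.14) and the lowest knockout estimate (0.0035). These enter each of the differences, so the choice of Pnpla2 lowers those in overexpressors. The separate overexpressor estimate of Mgll was -0.06.

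**Figure D4:**
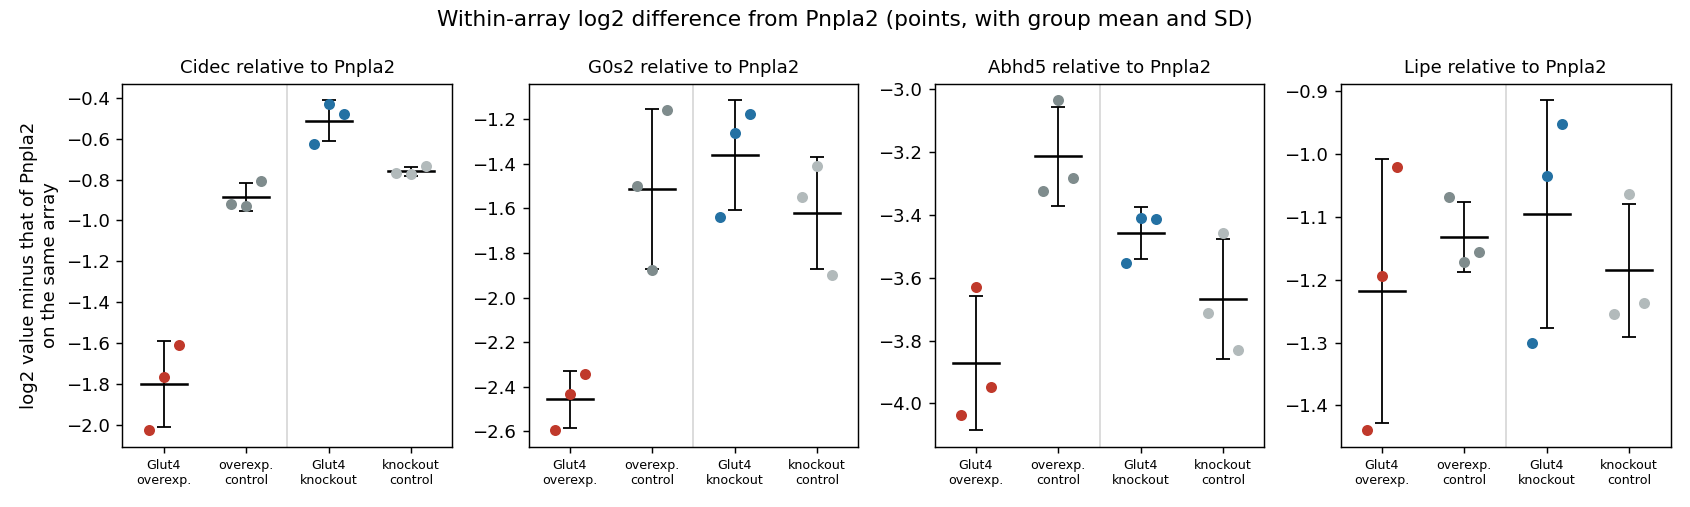
Log2 value of Cidec, G0s2, Abhd5 and Lipe minus that of Pnpla2 on the same array (points), with group mean and SD, for the same 4 groups. Overexpressors lie below all their controls for Cidec, G0s2 and Abhd5, and knockouts lie above all their controls for Cidec.

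Other genes of droplet and triglyceride handling were read from 4 lists. Of 16 other lipid droplet proteins, 10 were tested and 6 had no probe set naming only them. In overexpressors 1 was higher and 9 lower (median -0.19), and in knockouts 8 were higher and 2 lower (median 0.12), with none called in either. Bscl2, seipin, which helps droplets form, read 1320, 1469 and 1414 in knockouts, against 977, 1238 and 1034 in their controls. These groups did not overlap (log2 fold change 0.37, limma unadjusted p = 0.0443, adjusted p = 0.9995), and its overexpressor change was -0.05. Plin4, another perilipin of fat cells, changed by -0.38 in overexpressors and 0.20 in knockouts. Cav1, the caveolin of the fat cell surface, changed by -0.07 and 0.20, and neither gene passed the test. For Cav1, as for Bscl2, every knockout lay above every control, against 5.66% of all tested probe sets in that direction.

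Of 12 genes of triglyceride synthesis, 7 were tested, with 4 higher and 3 lower in overexpressors (median 0.06) and 5 higher and 2 lower in knockouts (median 0.13), and none was called. Gpd1, which makes the glycerol phosphate backbone, changed by 0.23 in overexpressors and 0.69 in knockouts, and Lpin1, a phosphatidate phosphatase, by 0.30 and 0.52. Gpat4, an acyltransferase of the first step, read 596, 718 and 590 in overexpressors, against 780, 838 and 764 in their controls. Its groups did not overlap, against 6.51% of all tested probe sets in that direction, but it did not pass (log2 fold change -0.31, limma adjusted p = 0.916).

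Among 10 other lipases and genes that handle their products, 6 were tested, with 3 higher and 3 lower in overexpressors (median 0.013) and 5 higher and 1 lower in knockouts (median 0.18), none called. Aqp7, the channel by which glycerol leaves fat cells, read 232, 250 and 329 in knockouts, against 169, 210 and 202 in their controls. The groups did not overlap (log2 fold change 0.40, limma unadjusted p = 0.0241, adjusted p = 0.9995). Lpl, which frees fatty acids from circulating lipoproteins, changed by -0.02 in overexpressors and 0.26 in knockouts. Fabp5, a fatty acid carrier, changed by 0.52 and 0.45, and neither gene passed the test. For Lpl and Fabp5, as for Aqp7, every knockout lay above every control, against 5.66% of all tested probe sets in that direction.

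Of 13 genes that carry signals to lipolysis, 4 were tested, 1 was dim and 8 had no probe set naming only them. The 4 split into 1 higher and 3 lower in overexpressors (median -0.11) and 3 higher and 1 lower in knockouts (median 0.029), with no call. Prkaca, a catalytic subunit of protein kinase A, which phosphorylates Lipe and perilipin, read 1113, 1148 and 1132 in knockouts, against 826, 985 and 909 in their controls. The groups did not overlap (log2 fold change 0.31, limma unadjusted p = 0.0452, adjusted p = 0.9995), against 5.66% of all tested probe sets in that direction. In overexpressors Prkaca changed by -0.19. Gnai2, an inhibitory G protein, changed by -0.19 in overexpressors and -0.01 in knockouts, and Adcy6, an adenylyl cyclase, by -0.04 and 0.05.

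**Figure D5:**
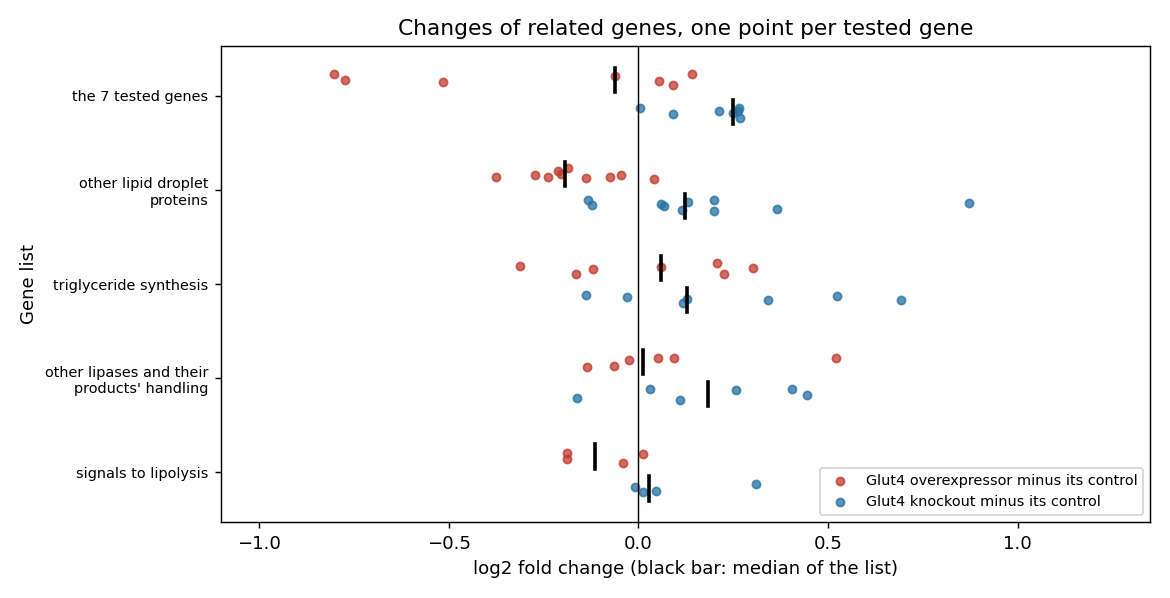
Log2 fold change of every tested gene in the 7 genes and in 4 related lists, for Glut4 overexpressors minus their controls (red) and Glut4 knockouts minus their controls (blue), with the median of each list (black bar). The overexpressor points furthest below 0 are those of G0s2, Cidec and Abhd5.

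Marker genes of the cell types such a sample could hold moved beside these values. Of the adipocyte markers, 7 of 8 were tested, with 3 higher and 4 lower in overexpressors (median -0.02) and 6 higher and 1 lower in knockouts (median 0.17). Their summed intensity ran from 20682 to 27058 in overexpressors and 22465 to 25448 in their controls. In knockouts it ran from 23300 to 25310 and in their controls from 20614 to 22918, so the knockouts were higher with no overlap. Among the tested probe sets of the 7 genes, only that of Plin2 showed no overlap in that line. The dim, untested Mgll probe set showed none either. Of these markers, Lpl and Fabp4 are also in the list of other lipases. Relative to the mean of the adipocyte markers, an alternative added after seeing the data, the Cidec change in overexpressors was -0.80 (limma adjusted p = 0.0259) and that in knockouts 0.06. That scaling moved the median of all tested probe sets in knockouts to -0.15, against 0.043 before, and in overexpressors to -0.097, against -0.072. Without it, the limma adjusted p of Cidec in overexpressors was 0.304. Over all alternatives, between 1 and 67 of all tested probe sets were called in overexpressors.

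Over all tested probe sets the median change was -0.07 in overexpressors and 0.043 in knockouts, where 63.1% lay above 0. Macrophage markers were lower in overexpressors for 8 of 8 tested (median -0.31), with 6 of 8 higher in knockouts (median 0.11). Their sums were 6717 to 7426 in overexpressors and 6320 to 12563 in overexpressor controls. Fibroblast and matrix markers were lower in overexpressors for 7 of 7 tested (median -0.58), with sums of 16885 to 21102 in overexpressors and 19970 to 29120 in their controls. Of these 7, 5 had an unadjusted limma p under 0.05, against 3.53% of all tested probe sets in that direction. In knockouts 6 of 7 were lower and 1 higher (median -0.15). Smooth muscle markers were lower for 4 of 4 in overexpressors (median -0.45, 2 at an unadjusted p under 0.05) and for 4 of 4 in knockouts (median -0.35). Endothelial markers were lower for 5 of 5 in overexpressors (median -0.26), with 3 higher and 2 lower in knockouts (median 0.068). Mesothelial markers were lower for 5 of 5 in overexpressors (median -0.24), with 1 higher and 4 lower in knockouts (median -0.13). Brown fat markers, of which Cidea is also a droplet protein, were lower for 3 of 3 tested in overexpressors (median -0.89) and higher for 3 of 3 in knockouts (median 0.87). Their sums overlapped, at 621 to 2477 in overexpressors against 1186 to 3907 in their controls, and 2863 to 4228 in knockouts against 771 to 3967 in their controls. The tested B cell, T cell, skeletal muscle and immediate early markers had medians of -0.25, 0.01, -0.12 and -0.23 in overexpressors, and of -0.14, -0.08, 0.12 and -0.25 in knockouts, over 2, 1, 4 and 4 genes. No marker of these lists passed the limma test, and their part in the values of the 7 genes was not tested.

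The tested genes whose log2 values, centred on lines, were most like the mean of the 7 genes over the 12 arrays were Echs1 (r = 0.972), Bckdha (0.965), Crat (0.957), Cpt2 (0.953) and Coq9 (0.952), out of 5697. Those most like Cidec alone were Mccc1 (0.944), Gstz1 (0.938), Cmbl (0.928), C9orf72 (0.920) and Ivd (0.913). Mccc1, a subunit of the carboxylase that acts in leucine breakdown, changed by -0.94 in overexpressors and 0.46 in knockouts, the largest of these 10 in both lines. Echs1 and Cpt2, of mitochondrial fatty acid oxidation, changed by -0.38 and -0.49 in overexpressors and by 0.24 and 0.32 in knockouts.

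The promoter windows of all 8 listed genes, 11 windows in all, were searched on both strands for 4 motifs of factors that act in fat. The PPAR element, a direct repeat with a spacer of 1 base, was in none of them and in 0.381% of all windows. The C/EBP motif TTNNGCAA was in the Cidec window shown above, though not in the other Cidec window, and at 2 places in that of Plin1. The E-box CACGTG, held by 7.15% of all windows, was in those of Plin2, Lipe and Mgll, and the forkhead motif GTAAACA, held by 3.65%, in those of Lipe and Mgll. The 3 genes with the lowest overexpressor estimates, Cidec, G0s2 and Abhd5, thus held no motif of the 4 in common within these windows, which says nothing about binding by the factors.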

How the data were processed

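RNA of perigonadal fat of 12 mice was measured on Affymetrix arrays. The authors deposited 1 linear intensity for each probe set on each array. Per the labels, a Qiagen RNeasy kit served for the extraction. How the arrays were summarised, background-corrected or scaled is not given in the sources used here. By the platform annotation, 10833 probe sets had 1 symbol, 396 had several and 1193 none, and 10817 were matched to GRCm38.p6 by gene ID.

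Values were taken as log2(intensity + 36.92), the 10th percentile of the table, with no further normalization. The 4968 probe sets (40%) with the lowest mean log2 value were left out and 7454 tested. Ranking by the linear mean was run first, and the log2 mean was adopted after those results had been seen. The closing section gives the values of both. In R 4.3.3, limma 3.58.1 fitted a mean for each group to all 12 arrays and moderated variances with a trend on intensity (8 residual degrees of freedom, 4.32 from the prior). Contrasts were each mutant minus its own control and the difference between these effects, with Benjamini-Hochberg adjustment over all tested probe sets and a threshold of 0.05. The code was tested on simulated data. A gene stood by its brightest probe set. All members were named, and from each related list the genes past the threshold plus, up to 3, those with the smallest p. The members, lists and markers were chosen with earlier results of these data known.

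No arrays of a group held the same values (smallest root mean square log2 difference 0.187), so each counted as 1 replicate. Promoter windows came from RefSeq (GRCm38.p6) by symbol, for 8 of 8 genes. There were 25 alternatives. Plots were made in matplotlib 3.10.9 under Python 3.11.15.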

Additional observations from a re-analysis of the deposited data

How the results depend on the processing

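Of 25 alternatives (24 for the difference between effects), 2 were added after the data were seen: the scaling to adipocyte markers and the filter ranked by linear means. The count of genes called in overexpressors stayed at 0 in 23. Over all 25, 2 to 4 genes had an unadjusted limma p under 0.05. The count was 1 (Cidec) with gene-by-gene array weights (-0.68, limma adjusted p = 0.0220) and relative to the adipocyte markers (-0.80, adjusted p = 0.0259). Array weights raised the calls among all 7454 tested probe sets in overexpressors to 67, against 6 in the main fit. Over all alternatives the adjusted p of Cidec in overexpressors ran from 0.0220 to 0.970. The count for the difference was 1 (Cidec, limma adjusted p = 0.0417) with array weights and 0 in the other 23. Those weights raised the calls for the difference among all tested probe sets to 25, against 12 in the main fit. The count for knockouts was 0 in all 25. The causes were not tested. The filter ranked by linear means called 0 genes in each comparison, with an adjusted p of 0.307 for Cidec in overexpressors. In overexpressors Cidec (-0.89 to -0.57), G0s2 (-0.90 to -0.58) and Abhd5 (-0.71 to -0.34) stayed below 0 under all 25. With only the line's own 6 arrays the adjusted p of Cidec was 0.614. Same-numbered arrays of a line deviated with r of -0.094 to 0.020 in the overexpressor line and -0.36 to -0.036 in the knockout line. Arrays with different numbers had r of -0.2 to 0.205 and of -0.189 to 0.42. Whether the numbers pair the mice cannot be decided from these values, because deviations within such small groups are tied to each other. The replicate block called 0 of the 7 genes in each comparison, with adjusted p = 0.210 for Cidec in overexpressors, and 5, 0 and 1 of all probe sets for overexpressors, knockouts and the difference. Leaving out each array in turn called 0 genes in every comparison. The median change of the 7 then ran from -0.20 to 0.05 in overexpressors, 0.13 to 0.31 in knockouts and -0.48 to -0.19 for the difference. Small estimates changed sign. In overexpressors the ranges over arrays left out were -0.023 to 0.19 for Plin2, -0.062 to 0.26 for Lipe and -0.20 to 0.050 for Mgll. With array weights Plin2 was 0.30 in overexpressors (limma unadjusted p = 0.0200, adjusted p = 0.232). In that fit 1139 of all 7454 tested probe sets had an unadjusted p under 0.05, against 355 in the main fit. In knockouts the ranges over arrays left out were -0.079 to 0.056 for Pnpla2 and -0.025 to 0.24 for Lipe. For the difference that of Lipe was -0.19 to 0.16. Mgll in overexpressors was 0.063 with quantile normalization, 0.00075 with array weights and 0.040 without the dimmest array of each line. Pnpla2 in knockouts was -0.033 with array medians subtracted and -0.19 relative to adipocyte markers, where Lipe was -0.10. For the difference, Plin2 was 0.0030 with quantile normalization, and Lipe was 0.14 with it, 0.058 with medians subtracted, 0.0044 with array weights, 0.16 without the dimmest arrays and 0.13 relative to adipocyte markers. Over all probe sets, calls ran from 1 to 67 in overexpressors (6 as reported), 0 to 14 in knockouts (9) and 1 to 25 for the difference (12). In the fit with no filter, the dim Mgll probe set had an SE of 0.17, against 0.13 for Pnpla2 and 0.23 for G0s2. The added constant understates changes of such dim probe sets.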
